A study of Homo sapiens with 24 samples.

Results

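TALL-1 is an established human cell line of T-cell acute lymphoblastic leukaemia (T-ALL), a cancer of immature T cells. The comparison described here is between the TALL-1 arrays given the compound NVS-ZP7-3 and those given its solvent, DMSO. The arrays were chosen by their sample titles. They number 6 (3 with each treatment) of the 24 arrays of a study of 4 T-ALL lines. All probe sets that map to a single gene were used, with the brightest probe set standing for its gene. The other lines were SUPT11, P12-ICHIKAWA and RPMI-8402, each with 3 DMSO and 3 NVS-ZP7-3 arrays. Cells were kept with compound or solvent for 16 h, and both groups held 0.5% DMSO, so the solvent is shared by treated and control cells. The labels give neither the dose nor the target of the compound and name no genetic change in any group. Each line stands for a single tumour grown in culture. The labels number the arrays within a group but do not say that they came from separate cultures, so p-values measure only the spread between these arrays, which may be technical.

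NVS-ZP7-3 is known as an inhibitor of ZIP7, the zinc transporter encoded by SLC39A7 that moves zinc out of the endoplasmic reticulum (ER) into the cytosol, and it came from a screen of the Notch pathway. Notch receptors are folded in the ER, cut at the membrane and act in the nucleus with RBPJ. They drive T cell commitment in the thymus and are often overactive in T-ALL. The immature thymocyte stage that many T-ALL lines resemble is marked by CD1A, the pre-T cell receptor chain PTCRA, the terminal transferase DNTT, and high levels of GATA3, TCF7, LEF1 and BCL11B. ER stress and amino acid shortage are read by kinases that raise translation of ATF4, which binds DNA with C/EBP-type partners, among them CHOP (DDIT3). Growth factor and phosphoinositide 3-kinase signalling hold FOXO factors out of the nucleus, and E2F factors control genes of DNA replication.

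Values are log2 expression, on which undetected probe sets sit at a common floor of 2.18. Genes at log2 4 or more on at least 3 of the 24 arrays were tested, 10661 in all. A gene is called when its Benjamini-Hochberg adjusted p from limma, over all tested genes, is below 0.05. In these bulk samples fewer cells of a type and less RNA per cell cannot be told apart. Arrays give no count of molecules, so precision rests on how many arrays a group has and how far a probe set stands above the floor.

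The 6 arrays resembled each other in brightness, with upper quartiles of 8.56 to 8.63. Arrays of the same treatment correlated at 0.9955 to 0.9977 over the tested genes, and those of different treatments at 0.9854 to 0.9889. The control probes of ACTB, which compare the start and the end of the same transcript, differed more between their 3' and 5' ends on the treated arrays (2.62, 2.47 and 2.40) than on the DMSO arrays (1.96 to 2.08). The mean difference was 0.49 (exact permutation test, two-sided p = 0.1, the smallest that 3 against 3 arrays allow). The same measure for GAPDH was 0.25 in both groups (p = 0.9, same exact test). The part of RNA integrity in the results below was not tested beyond a fit with the ACTB measure as a covariate, which called 3226 genes.

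The line carried the markers of its label. Of 12 T lineage markers on the arrays, 11 reached log2 4 in TALL-1, and CD5 stayed near the floor (2.18 to 2.61). No defining marker of B cells (0 of 9) reached that level, and the B cell marker MS4A1 and the myeloid marker CD14 were at 2.18 on every array. In the epithelial and stromal list 1 of 11 reached it, PECAM1, which stood at 11.23 to 11.80, while the other 10 stayed within 0.5 of the floor. In the list of natural killer and cytotoxic cells 2 of 8 reached it, KLRF1 on every array (6.68 to 7.5) and KLRB1 on DMSO replicate 2 (4.04). In the myeloid list 2 of 10 reached it, LYZ and AIF1. AIF1 was steadily high (13.35 to 13.77), while LYZ jumped between arrays of the same treatment (5.43, 8.62 and 2.18 with DMSO and 9.04, 2.19 and 2.26 with compound). HBB, a globin, stood at 7.96 on treated replicate 1 and at or near the floor on the other 5 arrays. Of 11 T-ALL oncogenic transcription factors tested, among them TAL1, LYL1, LMO2, NKX2-1 and MEF2C, none was measured in TALL-1.

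Treated replicate 2 stood apart and carried transcripts that TALL-1 with DMSO does not show. At the floor on all 3 TALL-1 DMSO arrays and at log2 10 or more with DMSO in another line of the study were 275 genes. On treated replicate 2, 48 of them stood more than 0.5 above the floor, against 4 on replicate 1 and 6 on replicate 3. Of the 32 that were bright in all 3 other lines, 23 were raised on replicate 2, against 1 and 2 on the other treated arrays. CCND2, a D-type cyclin, read 2.18, 7.79 and 2.97 on treated replicates 1 to 3. COTL1, an actin-binding protein, read 2.19, 7.27 and 2.28, and the RNA-binding YBX3 read 2.18, 6.44 and 2.20. In each case the second array alone was far above the floor. Of the genes bright in only a single other line, replicate 2 had raised 6 of 77 for SUPT11, 1 of 6 for P12-ICHIKAWA and 0 of 42 for RPMI-8402. Treated replicates 1 and 3 had each raised 2 of the 77, 0 of the 6 and 0 of the 42. RAG1, the recombinase of antigen receptor genes, also stood far higher on replicate 2 than on the other treated arrays (2.24, 9.15 and 2.95). It was not among the 275, since it was above the floor with DMSO (2.75 to 3.79), and was singled out after its values were seen. Of the 275, the genes raised on all 3 treated arrays were FGFBP2, WNK3, SELENOP and MTUS1.

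**Figure D1:**
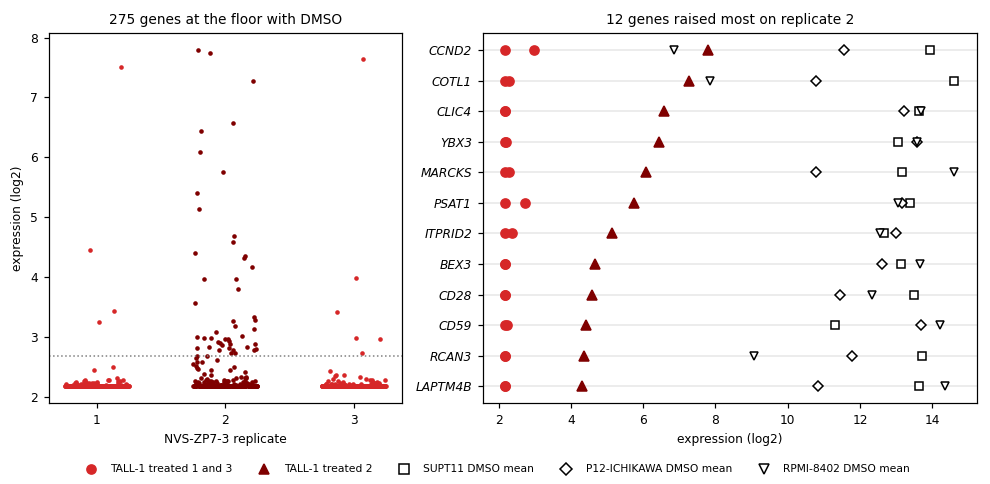
Left, log2 expression of the 275 genes at the floor in TALL-1 with DMSO and bright in another line, by treated replicate, with the dotted line 0.5 above the floor. Right, the 12 genes raised most on treated replicate 2 (triangles) beside treated replicates 1 and 3 (circles) and the DMSO means of the other lines (open symbols). Replicate 2 holds 48 points above the line and the others 4 and 6.

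The comparison of treatments and that with the other lines were therefore also made without treated replicate 2. The motif shares below use only the calls made with it. Of the 4471 genes called with it, 3889 were called without it as well, all in the same direction, and 582 were not. Among the 607 called genes with a log2 change of at least 1, 602 were called without it. Calls that rest on this array include S100A6, a calcium-binding protein (4.34, 4.02 and 4.71 with DMSO and 4.79, 6.72 and 5.12 with compound, adjusted p 0.0198 with it and 0.157 without), and the clock repressor CRY2 (adjusted p 0.0225 and 0.124). CD52, PNMA2, PINK1 and IGF2BP3 likewise lost their calls. These 6 genes were singled out after their values were seen.

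NVS-ZP7-3 changed a large share of the genes of TALL-1. Of 10661 tested genes 4471 were called (41.9%), 2377 higher (22.3%) and 2094 lower (19.6%), and these shares are the background against which each count below is read. Most changes were small, with a median size of 0.44 on the log2 scale among called genes. A log2 change of at least 1 was reached by 426 genes that rose and 181 that fell, and a change of at least 2 by 92 and 36. The balance of the small changes depended on scaling: centring each array on its median moved all changes by -0.05 and gave 2033 higher and 2545 lower. Fitted on the 6 TALL-1 arrays alone, without the spread of the other lines, 3474 genes were called, 3237 of them shared with the main count. Of the called genes named below whose calls were repeated under each setting, SOCS3, AMPD2, AIF1, PTCRA, MRPL17, LONP1 and SMOX lost their calls in that fit. With the ACTB measure as a covariate these other than SMOX and also IGHM, CD38, PSMB10, BCL2L1, AEN, ITGA4, GIMAP6, TK1, PSMC3, CLSPN and MNT lost theirs, and SELPLG lost its call with the mean of all its probe sets. Without DMSO replicate 1 the calls of GIMAP6, AIF1 and PTCRA were lost, without NVS-ZP7-3 replicate 1 those of AIF1 and PTCRA, and without DMSO replicate 3 that of PTCRA.

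Most of the genes with the largest rises were below log2 4 with DMSO. By a rule on size and separation, 15 rises and 15 falls are described, and each was also called when TALL-1 was fitted alone. The rule, also used to name genes from each list, asked for no overlap between the groups. Separation in genes named by it was therefore set by the choice. Of all tested genes 5206 (48.8%) had no overlap. KLHDC7B, a kelch-domain protein, was at 2.18 on all 3 DMSO arrays and at 9.12, 9.68 and 9.34 with compound, a difference of 7.20 ± 0.10 (SE) from the floor (adjusted p 1.37e-19). The floor leaves its true starting level, and with it the full size of the rise, unknown. Fitted in TALL-1 alone, its SE was 0.15 and its adjusted p 1.61e-04. ISG20, an interferon-stimulated exonuclease, went from 4.86, 4.03 and 3.98 to 10.38, 10.43 and 10.58, a rise of 6.17 ± 0.24 (adjusted p 8.47e-13). ANG, the secreted ribonuclease angiogenin that cuts tRNA under stress, was at 2.19 on each DMSO array and at 8.16, 7.97 and 8.39 with compound. In all 3 genes every treated array stood far above every DMSO array.

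FBXO32 (atrogin-1), a ubiquitin ligase subunit induced by FOXO factors in wasting muscle, rose from 3.05, 2.96 and 3.44 to 8.67, 8.89 and 8.73 (5.62 ± 0.17, adjusted p 1.39e-14). TSC22D3 (GILZ), the glucocorticoid-induced leucine zipper, rose from 3.53, 2.99 and 3.63 to 8.75, 8.73 and 8.71 (5.34 ± 0.23, adjusted p 2.48e-12). FGFBP2, a secreted protein of cytotoxic lymphocytes, rose from 2.26, 2.24 and 2.24 to 7.51, 7.74 and 7.64, so its rise is present on every treated array and does not hang on the second. The noncoding CHRM3-AS2 stood at 5.60, 4.46 and 4.04 with DMSO and at 9.91, 9.86 and 9.91 with compound, and LINC02806 at 2.18 on the DMSO arrays and at 7.15, 7.33 and 7.23. MCTP2, a C2-domain membrane protein, was at the floor with DMSO and at 6.71, 6.70 and 6.51 with compound. It was also at the floor on all 18 arrays of the other lines, which makes its standard error in the shared fit (0.042) smaller than in TALL-1 alone (0.062).

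The remaining rises of the group were TRIB3 (4.45), ALOX5AP (4.36 ± 0.57, adjusted p 5.9e-06), CHAC1 (3.88), DRC8 (3.88), FLRT1 (3.87) and SESN2 (3.76). TRIB3, a pseudokinase, CHAC1, which degrades glutathione, and SESN2, a brake on mTORC1, are textbook ATF4 targets. ALOX5AP presents arachidonate to 5-lipoxygenase and went from 3.17, 2.18 and 2.44 to 6.84, 7.02 and 6.99. No treated array of the 15 genes overlapped a DMSO array, as the rule required.

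**Figure D2:**
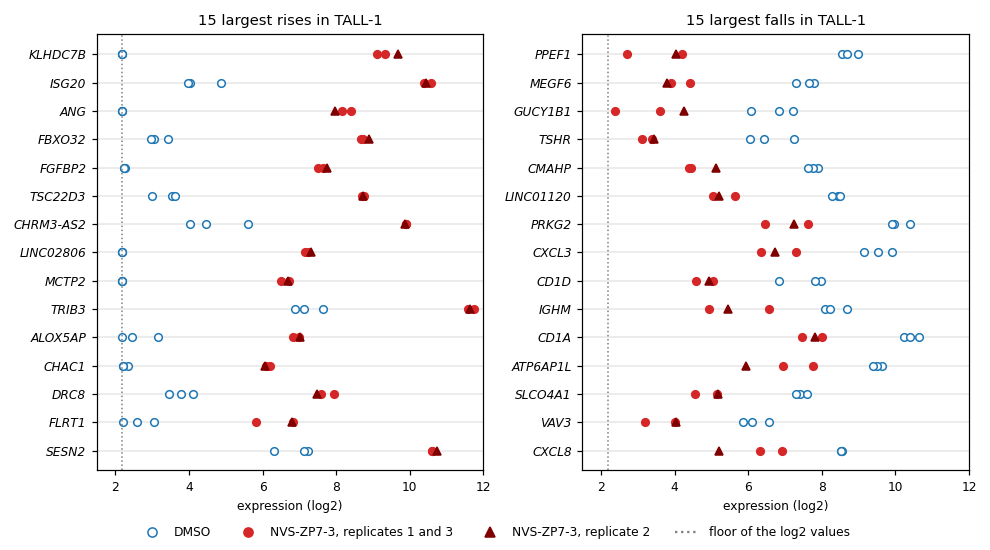
Log2 expression on each TALL-1 array for the 15 largest rises (left) and the 15 largest falls (right), with DMSO and NVS-ZP7-3 arrays as separate symbols and the dotted line at the floor of 2.18. The 2 groups do not overlap for any of the 30 genes, as the rule that chose them required, and several of the genes that rose start at the floor.

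The RefSeq windows upstream of these genes were searched for the letters TGATGNAA, a form bound by ATF4 with a C/EBP partner, on both strands of the 250 bases before each start (assembly GRCh38.p14). The letters were present for 4 of the 14 largest rises that have a window (28.6%), for 0 of 10 falls, for 2.34% of the tested genes with a window and for 3.14% of all 35116 windows. The same windows were searched for 8 motifs, and the ATF4 form was not the most frequent among the largest rises. The letters TGACNNNGC, a form linked to the factor NRF2, were present for 6 of the 14 rises (42.9%). They were also present for 3 of the 10 falls (30%) and for 16.1% of the tested genes with a window. The stretches around the ATF4 matches are shown because 3 of the 4 belong to genes outside the list of ATF4 and CHOP targets. They are written on the strand of each gene, with the matching letters in capitals. Each is the reverse complement of the search form and starts at position -151, -40, -44 or -209 from the start, in that order, at chr22:50545722-50545781 (plus strand), chr1:239719126-239719185 (minus), chr1:148279198-148279257 (plus) and chr15:40953236-40953295 (plus).
KLHDC7B: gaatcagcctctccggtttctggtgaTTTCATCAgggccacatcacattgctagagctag
CHRM3-AS2: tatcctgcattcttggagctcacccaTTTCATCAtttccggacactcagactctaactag
LINC02806: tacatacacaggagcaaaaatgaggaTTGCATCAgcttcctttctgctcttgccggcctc
CHAC1: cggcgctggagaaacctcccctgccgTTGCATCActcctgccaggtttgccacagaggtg

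Over the whole table the share of promoters with the ATF4 form was 2.21% among genes not called, 2.02% among genes that fell and 2.94% among genes that rose. It was 5.49% (19 of 346) among genes that rose by at least 1 and 10.4% (8 of 77) among those that rose by at least 2. A match is a string of letters and not a measured binding site.

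**Figure D3:**
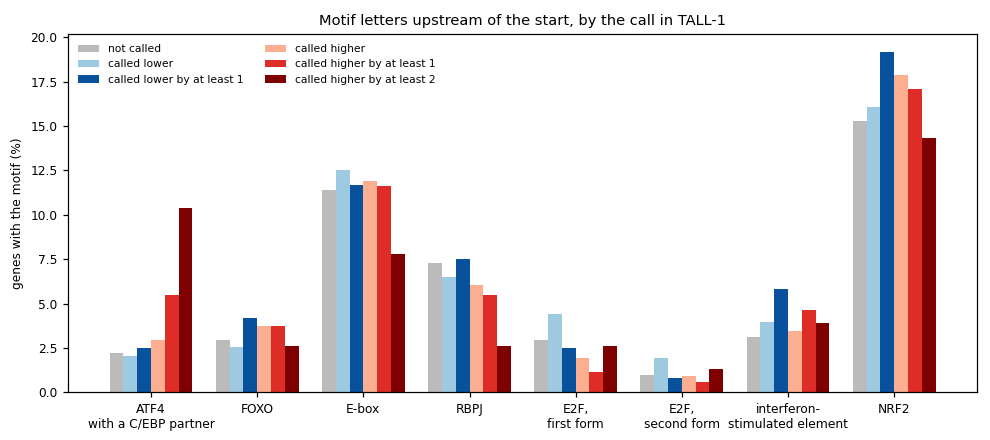
Share of genes (%) with each of 8 motifs in the 250 bases upstream of the start, grouped by the call in TALL-1. The bars of the ATF4 form step up from 2.21% (not called) to 10.4% (higher by at least 2). The first E2F form is at 4.39% among genes called lower and 1.94% among genes called higher. It is at 2.95% among genes not called and at 2.5% (3 of 120) among genes lower by at least 1.

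The largest of the 15 falls was that of PPEF1, a calcium-binding protein phosphatase, which went from 8.99, 8.56 and 8.70 to 2.70, 4.05 and 4.21, a fall of 5.10 ± 0.24 (adjusted p 6.87e-12). GUCY1B1, the beta subunit of the nitric oxide receptor guanylate cyclase, went from 7.22, 6.07 and 6.84 to 2.39, 4.26 and 3.60. PRKG2, a cyclic GMP-dependent kinase, went from 10.39, 9.95 and 9.90 to 6.46, 7.26 and 7.64 (fell by 2.96 ± 0.18, adjusted p 3.32e-10). The treated arrays of these 3 genes were spread more widely than the DMSO arrays, and the lack of overlap was required by the rule. Fitted in TALL-1 alone, the SE was 0.458 for PPEF1 (adjusted p 0.00272), 0.596 for GUCY1B1 (0.0167) and 0.352 for PRKG2 (0.00558). PPEF1 and PRKG2 were at the floor on all 18 arrays of the other lines, which makes their SE in the shared fit smaller.

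MEGF6, the next in size after PPEF1, fell by 3.53, CMAHP by a change of -3.10 and LINC01120 likewise by a change of -3.10. TSHR, the thyrotropin receptor, went from 7.25, 6.43 and 6.05 to 3.40, 3.45 and 3.12. CXCL3, a neutrophil-attracting chemokine, went from 9.52, 9.15 and 9.90 to 6.35, 6.73 and 7.3 (fell by 2.73 ± 0.27, adjusted p 2e-07), and CXCL8, another, from 8.55, 8.53 and 8.53 to 6.33, 5.21 and 6.91. IGHM, the mu heavy chain gene, went from 8.69, 8.10 and 8.22 to 4.95, 5.46 and 6.58, in a line where no B cell marker was measured. ATP6AP1L, SLCO4A1 and VAV3 complete the group of falls with changes of -2.62, -2.48 and -2.44. Every one of these separated the treated from the DMSO arrays, as the rule required.

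CD1A and CD1D, of the immature T cell surface, fell. CD1 proteins present lipids, and CD1A marks cortical thymocytes. CD1A went from 10.65, 10.23 and 10.41 to 7.47, 7.81 and 8.02 (fell by 2.66 ± 0.11, adjusted p 2.48e-12), and CD1D, which selects natural killer T cells, from 7.99, 6.84 and 7.83 to 4.59, 4.95 and 5.04 (fell by 2.69 ± 0.23, adjusted p 2.02e-08). Both separated the groups completely, as the rule required. Fitted in TALL-1 alone, the SE was 0.187 for CD1A and 0.359 for CD1D. Of the 5 CD1 genes tested 3 fell, but only these 2 were measured in TALL-1, and the third, CD1B, overlapped (4.22, 2.69 and 4.0 against 2.18, 3.72 and 2.19).

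The GIMAP genes, GTPases of lymphocyte survival that are clustered in the genome, fell as a family: 5 of 6 were lower and none higher, with a median change of -1.74 against 0.00 over all tested genes. GIMAP7 went from 12.80, 12.68 and 12.95 to 10.91, 11.24 and 11.31 (fell by 1.66 ± 0.15, adjusted p 7.1e-08), and GIMAP1 from 9.76, 9.70 and 9.84 to 7.67, 8.10 and 8.04 (fell by 1.83 ± 0.14, adjusted p 6.22e-09). GIMAP8 and GIMAP4 changed by -2.72 and -2.47 from low levels, and GIMAP6 by -0.91. GIMAP2 changed by -0.43 and missed the threshold in the shared fit (adjusted p 0.198), while in the fit of TALL-1 alone its adjusted p was 0.00548.

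Chains of the T cell receptor complex moved little or fell. Of 10 tested genes of receptor chains and recombination 4 fell and none rose. CD3G went from 13.94, 13.92 and 13.92 to 13.42, 13.46 and 13.56, CD3D changed by -0.27, and CD3E by -0.09 (adjusted p 0.206). PTCRA, the pre-T cell receptor chain, changed by -0.69 with overlap between the groups. DNTT, which adds bases during receptor gene joining, went from 13.22, 12.87 and 12.98 to 11.52, 11.74 and 11.69. Its treated arrays all lie below its DMSO arrays, but its spread in the other lines makes the change of -1.38 uncalled in the shared fit (SE 0.71, adjusted p 0.137), whereas TALL-1 alone gives an SE of 0.114 and an adjusted p of 0.00226. The same holds for CD8A (12.04, 11.95 and 11.95 against 11.10, 11.34 and 11.17, adjusted p 0.142 shared and 0.0028 alone) and for IL7R, the interleukin 7 receptor (11.59, 11.32 and 11.49 against 10.62, 10.60 and 10.68, adjusted p 0.368 and 0.0031), both singled out after their values were seen.

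Among 21 tested surface receptors 2 rose and 5 fell. The falls were 3 without treated replicate 2 and 3 with the ACTB covariate, and the rises were 4 after quantile normalization. CD8B, the partner chain of CD8A, went from 5.63, 3.32 and 4.01 to 2.22, 2.28 and 2.42. It lost its call in TALL-1 alone (adjusted p 0.0728). CD38, an ectoenzyme of thymocytes, changed by -0.67 and CD96, an adhesion receptor, by 0.85. Of 23 genes of proximal T cell receptor signalling 9 rose and 5 fell, and with the ACTB covariate 5 rose and 6 fell. The kinase LCK went from 12.76, 12.48 and 12.66 to 11.99, 12.03 and 11.94 (fell by 0.65 ± 0.070, adjusted p 5.67e-07), and its relative FYN moved the other way, from 11.53, 11.47 and 11.44 to 12.06, 12.12 and 11.97. CBLB, a ubiquitin ligase that restrains the receptor, rose from 8.92, 9.03 and 9.09 to 10.36, 10.32 and 10.35 (1.33 ± 0.086, adjusted p 7.59e-10). The adaptors SIT1 and SLA changed by 0.59 and -0.67.

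Of 20 tested T lineage transcription factors 6 fell and 3 rose. GATA3, needed for commitment, went from 12.22, 12.10 and 12.07 to 11.21, 11.34 and 11.42 (fell by 0.81 ± 0.058, adjusted p 3.04e-09). BCL11B, which closes other fates, went from 14.34, 14.29 and 14.31 to 13.64, 13.82 and 13.84. The Ikaros family member IKZF2 changed by -0.87, ID3 by -1.11, ETS2 by -0.70 and LEF1 by -0.25. In each of these genes the treated arrays lie below the DMSO arrays.

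TOX2, a factor of the TOX family, was at the floor with DMSO and at 5.15, 5.81 and 5.49 with compound (3.30 ± 0.26, adjusted p 1.05e-08). ID2, an inhibitor of E proteins, changed by 1.09 and stayed under log2 4 on every array. ELF1 changed by 0.54. MYB changed by -0.37, with an adjusted p of 0.209 shared and 0.00629 in TALL-1 alone. The brightest probe set of TCF3, the E protein partner of ID factors, changed by 0.06 and was not called, while its 10 other measured probe sets all changed the opposite way.

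Of 15 chemokine and homing receptors 3 were higher and 4 lower, shares near the background, and with the ACTB covariate 2 were lower. CCR8, a chemokine receptor, went from 9.18, 9.14 and 9.29 to 7.31, 7.22 and 7.04 (fell by 2.02 ± 0.32, adjusted p 5.58e-05). CCR9, which guides thymocytes and gut T cells, rose from 3.25, 4.34 and 3.02 to 5.61, 5.38 and 5.16. The integrin chain ITGA6 rose by 1.33 ± 0.12 to 12.88, 12.97 and 12.96, and ITGA4 went from 12.13, 12.11 and 12.22 to 11.26, 11.28 and 11.16. SELPLG, the selectin ligand, changed by 1.12. Among 28 cytokine receptor and JAK-STAT genes 11 rose (7 with the ACTB covariate), with PIM1 changing by 0.58 and SOCS3 by 0.68. The insulin-like growth factor receptor IGF1R was the 1 called lower (12.51, 12.57 and 12.42 against 11.78, 11.82 and 11.88).

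**Figure D4:**
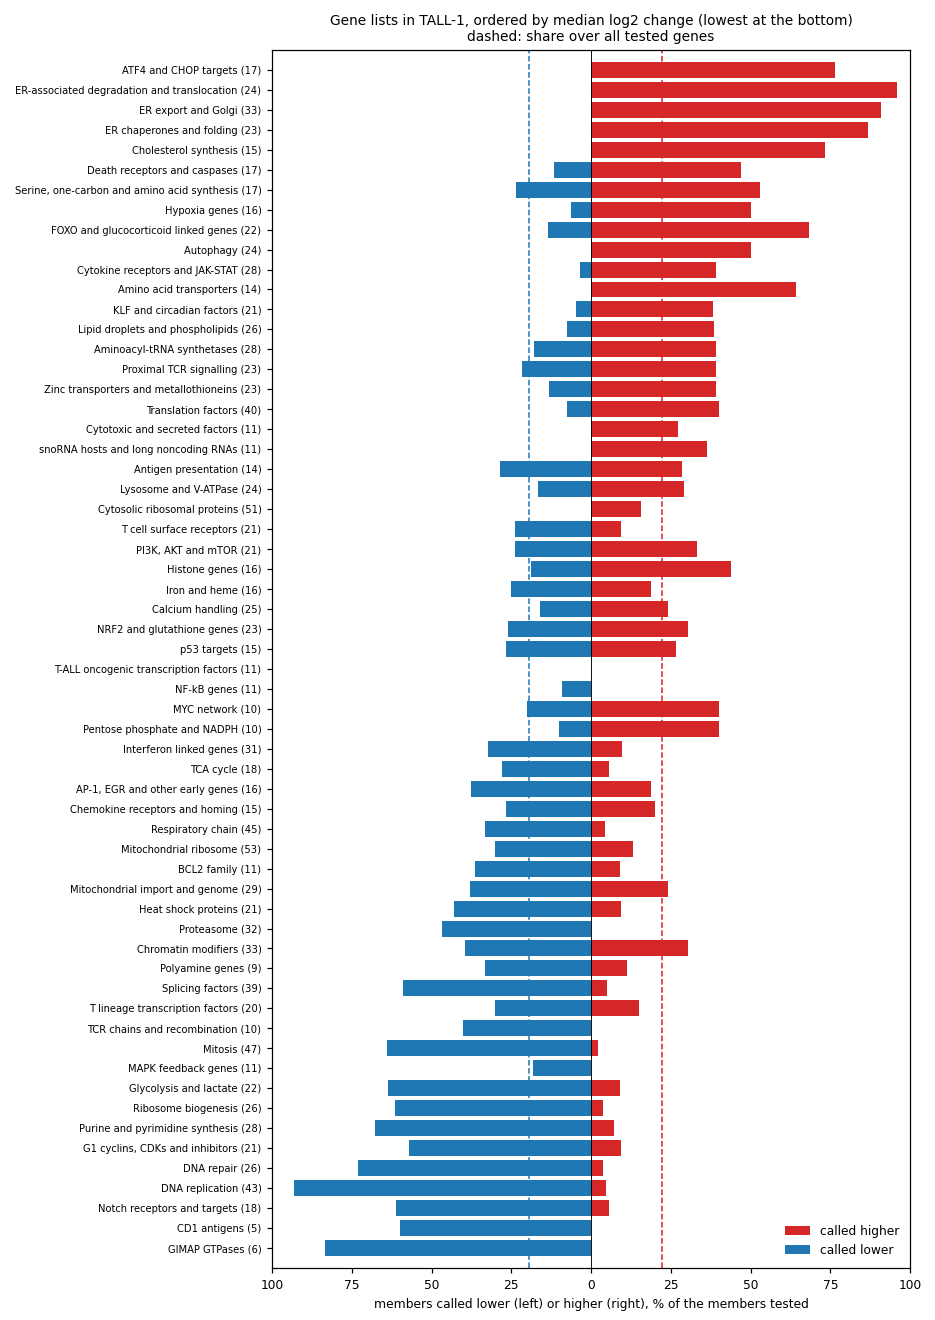
Share of the tested members of each gene list called higher (right) or lower (left) in TALL-1, in percent, with the number tested in brackets and lists ordered by median log2 change. Dashed lines mark the shares over all tested genes (22.3% and 19.6%). GIMAP, DNA replication and Notch genes lie at the bottom and ER and ATF4 genes at the top.

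Genes linked to FOXO factors and glucocorticoids rose: 15 of 22 were higher and 3 lower, a median change of 0.37. Beside FBXO32 and TSC22D3, GABARAPL1, an ATG8 protein of autophagosomes, rose from 4.23, 3.82 and 3.83 to 6.27, 6.65 and 6.33 (2.46 ± 0.14, adjusted p 6.87e-11). TXNIP, which restrains glucose uptake and binds thioredoxin, rose from 10.07, 9.93 and 9.95 to 11.87, 11.86 and 11.82 (1.87 ± 0.060, adjusted p 4.91e-14). The factors themselves were higher too, with FOXO4 changing by 1.22 and FOXO1 by 0.58, as was the glucocorticoid receptor NR3C1 (0.49). These genes separated the groups on every array, as did 48.8% of all tested genes.

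The list did not move as a block. ARRDC4, the arrestin relative of TXNIP, went from 12.79, 12.62 and 12.81 to 11.03, 11.38 and 11.27 (fell by 1.51 ± 0.12, adjusted p 1.18e-08), and BCL2L11 (BIM), a death activator, went from 11.99, 11.93 and 11.89 to 11.32, 11.44 and 11.56. The letters GTAAACA, a FOXO form searched on both strands, stood upstream of 6 of 21 list members with a window (28.6%), against 3.06% of the tested genes and 2.98% of all windows. They were present for 1 of the 14 largest rises that have a window (7.14%) and for 1 of the 10 falls (10%). Among genes that rose by at least 1 the share was 3.76% (13 of 346), and by at least 2 it was 2.6% (2 of 77). The stretch upstream of TSC22D3, at chrX:107717177-107717235 on the minus strand of GRCh38.p14, is shown because TSC22D3 is the only gene with these letters among the 14 largest rises that have a window. The capitals mark their reverse complement, which starts at position -147.
TSC22D3: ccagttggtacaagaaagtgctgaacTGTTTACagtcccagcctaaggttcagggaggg

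Of 21 genes of the phosphoinositide 3-kinase and mTOR pathway 7 rose and 5 fell, and under median centring 6 rose and 6 fell. EIF4EBP1, which blocks cap-dependent translation, rose from 9.49, 9.21 and 9.33 to 11.30, 11.28 and 11.39, and DDIT4 (REDD1), a brake on mTORC1, from 13.80, 13.80 and 13.76 to 14.48, 14.50 and 14.49. PIK3R3, a regulatory subunit, changed by -0.83. Autophagy genes rose in 12 of 24 cases and fell in none. WIPI1, an early autophagosome protein, rose from 8.58, 8.78 and 8.47 to 11.17, 10.85 and 10.90 (2.36 ± 0.20, adjusted p 2.34e-08), the receptor OPTN changed by 1.05 and the initiation factor ATG13 by 0.97. In the lysosome list 7 of 24 rose and 4 fell, a share near the background that turned to 5 and 6 after quantile normalization, with NEU1, a sialidase, at 1.18 and TFE3, a lysosomal regulator, at 0.84.

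ISG20 did not stand for interferon-linked genes as a group, of which 3 of 31 rose and 10 fell. IRF9, the DNA-binding part of the interferon response complex, rose from 6.35, 5.88 and 6.32 to 8.19, 8.0 and 7.85, and IFIT2 changed by 0.86. USP18, which removes ISG15, went from 6.68, 5.68 and 6.41 to 4.56, 4.49 and 4.23, OAS3 changed by -1.40, EPSTI1 by -1.50 and the factor IRF1 by -1.04. Without treated replicate 2 the falls were 7, and with the ACTB measure as a covariate 5. The interferon-stimulated element, the letters GAAA repeated after a gap of 2 bases, stood upstream of 14 of 25 list members with a window (56%), against 3.37% of the tested genes and 3.02% of all windows. ISG20 holds such a stretch at position -69 (chr15:88638921-88638982, plus strand, GRCh38.p14), shown because the gene holds the letters (capitals) and rose while most called members of the list fell.
ISG20: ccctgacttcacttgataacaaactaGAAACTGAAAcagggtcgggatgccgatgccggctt

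Of 14 antigen presentation genes 4 were higher and 4 lower, counts near the background, and with the ACTB covariate 2 were lower. The 4 that rose encode heavy chains of class I molecules: HLA-B went from 9.61, 9.17 and 9.55 to 10.24, 10.29 and 10.19, HLA-C changed by 0.76, HLA-F by 0.72 and HLA-E by 0.58. These genes resemble each other in sequence, and probes may not fully separate them. Of the 4 that fell, 3 are immunoproteasome subunits, which cut peptides for class I molecules. PSMB10 went from 10.19, 9.77 and 9.77 to 8.88, 9.24 and 9.43, PSMB8 changed by -0.61 and PSMB9 by -0.60, and the loading factor TAPBP by -0.40.

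Death receptors and caspases rose in 8 of 17 cases and fell in 2. TNFRSF10B (DR5), a receptor for TRAIL, rose from 12.61, 12.51 and 12.55 to 13.56, 13.39 and 13.34 (0.87 ± 0.056, adjusted p 6.01e-10), and TNFRSF10A (DR4) from 3.03, 2.96 and 3.16 to 5.06, 4.79 and 4.96. CASP9, the initiator caspase of the mitochondrial route, rose from 7.21, 5.88 and 6.25 to 7.92, 7.94 and 8.10, and CASP10 changed by 0.82. The executioner CASP6 changed by -0.66. In the BCL2 family 1 of 11 rose and 4 fell: the survival genes BCL2 (12.67, 12.76 and 12.83 against 11.99, 12.16 and 12.21) and BCL2L1 (9.11, 8.76 and 8.90 against 8.19, 8.04 and 8.36) and the death activators BID (-0.53) and BCL2L11. Of 15 p53 targets 4 rose and 4 fell, with the ribonucleotide reductase subunit RRM2B at 1.03 and the nuclease AEN at -0.66.

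Of 16 early response genes 6 fell, 3 rose and 7 were not called, and with the ACTB covariate 3 fell and 3 rose. EGR1 went from 10.91, 10.76 and 10.58 to 9.26, 9.23 and 9.71 (fell by 1.35 ± 0.17, adjusted p 2.36e-06) and JUN from 8.58, 8.34 and 9.14 to 7.28, 7.36 and 7.57. ATF3, a stress-induced repressor of the same family as JUN, rose from 4.71, 3.91 and 5.43 to 8.36, 8.41 and 8.31, and KLF6, a zinc finger factor, from 12.62, 12.66 and 12.70 to 13.27, 13.20 and 13.35. Of 11 MAPK feedback genes 2 fell, led by SPRY4 (7.84, 7.88 and 7.29 against 5.94, 6.32 and 6.29).

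MYC and its antagonists MXD1 and MNT moved in opposite directions. MYC went from 12.12, 11.73 and 11.77 to 10.83, 11.05 and 10.72 (fell by 1.0 ± 0.10, adjusted p 2.85e-07). MXD1, which displaces MYC from MAX, rose from 9.99, 10.01 and 9.89 to 11.08, 11.06 and 11.0, and MNT changed by 0.73. Of the 10 network genes tested 4 rose and 2 fell, and with the ACTB covariate 2 rose. Among KLF and circadian factors 8 of 21 rose (5 after quantile normalization), led by BHLHE40, a clock repressor (7.51, 6.75 and 6.85 against 9.20, 9.21 and 9.10), and TEF, which changed by 1.0. CRY2 is among the 8 and rests on treated replicate 2.

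DNA replication genes fell almost without exception: 40 of 43 were lower, 2 were higher, and the median change was -0.57. CLSPN, the claspin adaptor of the fork checkpoint, went from 11.22, 11.5 and 11.49 to 10.15, 10.55 and 10.43 (fell by 1.02 ± 0.16, adjusted p 3.29e-05). MCM2 and MCM5, subunits of the helicase that opens origins, fell, MCM2 from 11.66, 11.26 and 11.34 to 10.29, 10.61 and 10.36 and MCM5 from 10.14, 9.69 and 9.80 to 8.68, 8.99 and 9.03. The helicase partner GINS2 went from 11.98, 11.71 and 11.82 to 10.73, 10.90 and 10.93. The groups did not overlap in any of these genes, which the naming rule required.

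CDC6, a helicase loader, and RFC1, a clamp loader subunit, were the 2 that rose, by 0.34 ± 0.074 and 0.17 ± 0.052. Under median centring 1 of the list was called higher. The E2F letters TTTCCCGC, searched on both strands, stood upstream of 7 of 36 members with a window (19.4%), against 3.00% of the tested genes, 1.39% of all windows and 0 of 21 DNA repair genes. Stretches are shown for 4 members with the letters, taken in order of the size of their fall from the members called lower. Their falls were therefore set by the choice. The stretches belong to a clamp-dependent ligase, 2 helicase subunits and a helicase partner. They are written on the gene strand, with the letters or their reverse complement in capitals starting at position -31, -114, -187 or -174, in that order. They lie on the minus strand of GRCh38.p14 at chr16:85688952-85689011, chr19:48170425-48170484, chr7:100101551-100101610 and chr6:52284883-52284942.
GINS2: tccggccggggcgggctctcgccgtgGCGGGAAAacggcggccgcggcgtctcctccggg
LIG1: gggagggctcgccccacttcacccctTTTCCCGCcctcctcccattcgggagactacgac
MCM7: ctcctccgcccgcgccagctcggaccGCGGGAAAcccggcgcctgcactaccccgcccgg
MCM3: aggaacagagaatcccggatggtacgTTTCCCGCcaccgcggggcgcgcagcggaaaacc

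LIG1 changed by -0.86, MCM7 by -0.67 and MCM3 by -0.57. Regulators of entry into S phase fell too. Of 21 genes of G1 control 12 were lower and 2 higher: CCNE1 (cyclin E1) went from 11.67, 11.55 and 11.43 to 10.32, 10.56 and 10.68 (fell by 1.03 ± 0.091, adjusted p 4.11e-08) and E2F1 from 10.72, 10.36 and 10.51 to 9.68, 9.67 and 9.65. The inhibitors CDKN1B (p27) and CDKN2D were the 2 that rose, each with a change of 0.49. CCND2 was not called (adjusted p 0.0799).

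Of 47 mitotic genes 30 were lower, with a median of -0.20, and the count was 23 without treated replicate 2 and 17 with the ACTB covariate. MKI67, the proliferation antigen, went from 12.44, 12.64 and 12.17 to 11.42, 11.56 and 11.29, and CENPF, a kinetochore protein, changed by -0.61. DNA repair genes fell in 19 of 26 cases (median -0.39). UNG, which removes uracil from DNA, went from 13.01, 12.91 and 13.04 to 11.72, 11.92 and 11.91 (fell by 1.13 ± 0.062, adjusted p 6.87e-11), and RECQL4, a helicase, changed by -1.0. The 1 repair gene to rise, ATM, changed by 0.22 and was not called without treated replicate 2 (adjusted p 0.0774). Nucleotide synthesis followed, with 19 of 28 lower and 2 higher (median -0.38): TK1, which salvages thymidine, went from 9.94, 9.52 and 9.79 to 8.54, 8.84 and 9.15, and CTPS1, the CTP synthase of dividing lymphocytes, from 12.77, 12.58 and 12.58 to 11.62, 11.82 and 11.93. AMPD3 and AMPD2, which deaminate AMP, were the 2 that rose, by 1.93 and 0.55.

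Histone genes were higher in 7 of 16 cases and lower in 3. H2AC6 rose from 11.20, 11.08 and 11.04 to 13.48, 13.20 and 13.31 (2.22 ± 0.12, adjusted p 3.46e-11) and H2BC12 from 11.91, 11.83 and 11.93 to 12.77, 12.85 and 12.90. Both genes are known to give polyadenylated transcripts as well, and near-identical copies may share probes. Of 33 chromatin modifiers 13 fell and 10 rose, and with the ACTB covariate 14 fell and 6 rose. SMARCA4, a remodelling ATPase, went from 11.57, 11.49 and 11.42 to 10.73, 10.68 and 10.72, DNMT1 changed by -0.65, the demethylase KDM4A by 0.90 and the deacetylase HDAC9 by 1.26.

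Ribosome biogenesis genes were lower in 16 of 26 cases and higher in 1 (median -0.32), with LYAR, a nucleolar protein, going from 11.60, 11.46 and 11.36 to 10.53, 10.75 and 10.79. Glycolysis genes were lower in 14 of 22 (median -0.27): TPI1 went from 12.95 or more with DMSO to 12.15, 12.36 and 12.43 (fell by 0.71 ± 0.060, adjusted p 2.29e-08), although 1 of its 2 other probe sets moved the opposite way. PFKP, a phosphofructokinase, changed by -0.78. The glucose transporter SLC2A3 rose against this list, from 9.43, 9.40 and 9.45 to 10.73, 10.75 and 10.75. With the ACTB measure as a covariate 8 glycolysis genes were lower in place of 14.

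Splicing factors were lower in 23 of 39 cases (16 with the ACTB covariate) and higher in 2. Proteasome subunits were lower in 15 of 32 cases, and none of them rose. Examples of the falls are SRSF7 (13.71, 13.56 and 13.63 against 13.13, 13.17 and 13.16) and the proteasome ATPase PSMC3 (12.70, 12.53 and 12.50 against 11.92, 12.10 and 12.22). The respiratory chain fell in 15 of 45 cases and rose in 2, with a median of only -0.09. Under median centring the proteasome falls were 23 and the respiratory falls 22, and with the ACTB covariate 7 and 3. Cytosolic ribosomal proteins hardly moved: 8 of 51 rose, with a median of 0.05, a smaller share than the background, and 2 rose under median centring and 5 with the ACTB covariate or without treated replicate 2. Of 40 translation factors 16 rose and 3 fell, under median centring 9 and 6, and with the ACTB covariate 8 and 3.

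Mitochondrial genes outside the respiratory chain moved both ways. Of 53 genes of the mitochondrial ribosome 16 fell and 7 rose, and with the ACTB covariate 5 fell and 6 rose. MRPL17, of its large subunit, went from 10.98, 10.67 and 10.62 to 10.04, 10.24 and 10.41. Of 29 genes of mitochondrial import and genome upkeep 11 fell and 7 rose, and with the ACTB covariate 7 and 4, with the protease LONP1 changing by 0.60. The tricarboxylic acid cycle list had 5 of 18 lower and 1 higher, its rise being that of PCK2, described with the ATF4 targets. SDHA, a subunit of succinate dehydrogenase, changed by -0.38.

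Of 10 genes of the pentose phosphate route and NADPH supply 4 rose and 1 fell, but 3 rose and 3 fell under median centring and 2 and 3 with the ACTB covariate. The 1 that fell was NADK, the NAD kinase (12.90, 12.76 and 12.63 against 12.22, 12.40 and 12.38). Of 9 polyamine genes 3 fell and 1 rose, with the spermine synthase SMS at -0.36 and the spermine oxidase SMOX at 1.14. Of 11 NF-kB genes 1 fell, CD83, an activation marker, with a change of -0.58. Of 11 cytotoxic and secreted factors 3 rose, namely ANG, FGFBP2 and VEGFA.

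Heat shock proteins of the cytosol fell in 9 of 21 cases and rose in 2. DNAJA1 went from 13.74, 13.60 and 13.63 to 13.21, 13.27 and 13.21 (fell by 0.43 ± 0.047, adjusted p 7.26e-07). The co-chaperones BAG3 (4.04, 3.14 and 3.66 against 5.66, 5.83 and 5.53) and DNAJB4 (9.38, 9.52 and 9.74 against 10.92, 10.75 and 10.73) were the 2 that rose.

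In the secretory pathway, where ZIP7 sits, nearly all genes rose. Of 24 genes of ER-associated degradation and translocation 23 were higher, with a median of 0.61. EDEM2, which trims glycans of misfolded proteins, rose from 11.35, 11.21 and 11.21 to 13.12, 13.10 and 13.17 (1.87 ± 0.087, adjusted p 7.12e-12). ER chaperones and folding enzymes were higher in 20 of 23 cases, led by FKBP14, a prolyl isomerase (8.23, 8.31 and 7.80 against 10.73, 10.57 and 10.47). ER export and Golgi genes were higher in 30 of 33 (median 0.59), with SEC24D, a COPII cargo adaptor, at 10.98, 10.63 and 11.01 against 12.62 or more and the golgin GOLGB1 at 7.41, 7.28 and 6.71 against 8.98, 8.85 and 8.49. No gene of these 3 lists was called lower, and with the ACTB covariate 1 ER export gene was. Cholesterol synthesis genes were higher in 11 of 15, led by MVK, the mevalonate kinase, with a change of 1.48 ± 0.29 (adjusted p 0.000358).

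ATF4 and CHOP targets were higher in 13 of 17 cases with a median of 1.47. None was called lower with all arrays, and 1 was called lower without treated replicate 2. DDIT3 (CHOP) went from 7.37, 6.85 and 6.71 to 10.30, 10.28 and 10.18. SLC7A11, the cystine importer, rose from 10.74, 10.77 and 10.46 to 13.58, 13.49 and 13.63 (2.91 ± 0.15, adjusted p 2.15e-11), its partner chain SLC3A2 changed by 2.14, and 9 of 14 amino acid transporters were higher and none lower (6 higher and 1 lower under median centring, 5 higher with the ACTB covariate). CTH, which makes cysteine, rose from 9.80, 9.39 and 9.85 to 12.02, 11.97 and 11.77.

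Of 17 genes of serine, one-carbon and amino acid synthesis 9 rose and 4 fell, and without treated replicate 2 the falls were 5. PHGDH, which starts serine synthesis in the cytosol, rose from 12.30, 12.13 and 12.11 to 12.91, 12.92 and 12.98 (0.76 ± 0.064, adjusted p 2.19e-08). Mitochondrial SHMT2 rose (14.03, 13.90 and 13.88 against 14.54, 14.52 and 14.51), and cytosolic SHMT1 changed by -0.57 and cytosolic MTHFD1 by -0.59. PSAT1, of the serine pathway, was called (1.37, adjusted p 0.0431) although treated replicate 1 was at the floor and replicate 2 carried most of the change, and ASNS, the asparagine synthetase, overlapped between the groups and was not called (-0.70, adjusted p 0.127). SHMT1, SHMT2, MTHFD1, PSAT1, ASNS and DDIT3 were singled out after their values were seen. Of 28 aminoacyl-tRNA synthetases 11 rose and 5 fell, and the falls were 10 under median centring and 9 after quantile normalization, with 11 rises each time. Cytosolic WARS1 rose from 10.00, 9.75 and 9.69 to 11.42, 11.47 and 11.43, and VARS1 went from 7.84, 7.18 and 7.35 to 6.05, 6.38 and 6.40. PCK2, the mitochondrial enzyme of phosphoenolpyruvate synthesis, rose from 10.50, 10.31 and 10.18 to 12.27, 12.30 and 12.31.

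SLC39A7, the gene of ZIP7, rose from 9.37, 9.07 and 9.21 to 11.08, 10.98 and 10.90 (1.77 ± 0.10, adjusted p 1.87e-10). Of 23 zinc transporters and metallothioneins 9 rose and 3 fell, with a median of 0.11. SLC39A11 rose from 11.47, 11.45 and 11.59 to 12.38, 12.34 and 12.45, SLC30A7, which loads zinc into the Golgi, changed by 0.63 and SLC30A1, the zinc exporter of the cell membrane, by 0.62. The metallothionein MT2A went from 10.65, 10.38 and 10.36 to 9.94, 10.02 and 10.10 (fell by 0.45 ± 0.12, adjusted p 0.00469).

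Of 18 Notch receptors and targets 11 fell and 1 rose, with a median of -0.59. The feedback inhibitor NRARP went from 11.21, 11.01 and 10.91 to 8.95, 9.11 and 9.36 (fell by 1.91 ± 0.077, adjusted p 1.19e-12), HEY1 from 12.20, 12.26 and 12.21 to 10.57, 10.55 and 10.68, and DTX1 from 11.61, 11.07 and 11.25 to 9.45, 9.80 and 9.72. Fitted in TALL-1 alone, the SE of NRARP was 0.137 (adjusted p 0.0017). Receptor transcripts were lower too: NOTCH1 changed by -0.94 and NOTCH3 by -0.68.

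P2RX7 and P2RX5, receptors for extracellular ATP, moved in opposite directions. P2RX7, a channel whose opening leads to pore formation and death in thymocytes, rose from 8.31, 8.23 and 8.12 to 11.57, 11.59 and 11.41 (3.30 ± 0.13, adjusted p 6.64e-13). P2RX5 went from 10.68, 10.43 and 10.48 to 8.89, 9.24 and 8.93 (fell by 1.51 ± 0.18, adjusted p 1.35e-06). Of 25 calcium handling genes 6 rose and 4 fell (6 and 6 under median centring), with the ER release channel ITPR1 at 0.85 and the plasma membrane pump ATP2B4 at -0.73. In the hypoxia list 8 of 16 rose, with VEGFA going from 12.84, 12.79 and 12.96 to 13.82, 13.74 and 13.70 and NDRG1 changing by 1.05. Of 23 genes of the NRF2 and glutathione list 7 rose and 6 fell, and under median centring 6 rose and 8 fell. NQO1, a quinone reductase, rose from 9.73, 9.36 and 9.54 to 11.12, 11.00 and 11.11, while CHAC2 went from 10.09, 9.68 and 10.34 to 8.68, 8.58 and 8.80, opposite to its relative CHAC1. Of 16 genes of iron and heme 3 rose and 4 fell: ferritin light chain FTL changed by 0.36 and the transferrin receptor TFRC by -0.42.

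The TALL-1 response was set against the mean response of the other 3 lines. It differed for 3050 genes (28.6% of those tested), 1797 in the higher and 1253 in the lower direction, and under median centring 1462 and 1700. For 2761 of the 3050 the gene was measured, with 3 arrays or more reaching log2 4, both in TALL-1 and among the other lines. For 201 it was not measured in TALL-1 and for 90 not in the other lines.

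KLHDC7B, CHRM3-AS2, MCTP2, PPEF1 and PRKG2 were not measured in the other lines: none of the 18 other arrays reached log2 4 for them, with either treatment. Other genes were present elsewhere and moved less. FGFBP2 was at 13.23 in SUPT11 in both groups, GUCY1B1 at 12.95 and 13.17 in RPMI-8402, and TSHR at 8.18 and 7.55 in P12-ICHIKAWA, each with DMSO first. ISG20 went from 6.11 to 9.91 and ANG from 3.25 to 6.81 in RPMI-8402, where they changed by 3.80 and 3.57, less than in TALL-1. LINC02806 changed by 1.38 in SUPT11.

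CCR8 moved in opposite directions. It fell by 2.02 in TALL-1, rose by 1.79 in RPMI-8402 (3.54 to 5.33) and changed by 0.74 in P12-ICHIKAWA, and the TALL-1 response minus the mean of the others was -2.86 ± 0.37 (adjusted p 1.43e-05). CCR9 moved the other way round, by 1.85 in TALL-1 and by -3.73 in RPMI-8402 (difference 3.09, adjusted p 5.53e-07). GATA3 changed by -0.81 in TALL-1 and by 0.67 in P12-ICHIKAWA (difference -1.11 ± 0.068, adjusted p 1.06e-09). NRARP changed by -1.91 in TALL-1, but in the other lines it stood at 2.34 or less on all 18 arrays, so no fall could be seen there. NOTCH3 fell less in TALL-1 than on average elsewhere (difference 1.05, adjusted p 9.18e-05).

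Several genes rose in TALL-1 without a called difference from the other lines, although those lines were unlike each other. DDIT3 differed from the mean by 0.02 (adjusted p 0.958), with changes of 3.28 in TALL-1 and 2.51, 2.71 and 4.56 in SUPT11, P12-ICHIKAWA and RPMI-8402. DDIT4 differed by 0.03 (adjusted p 0.771), with 0.70 in TALL-1 and -0.03, 0.35 and 1.70 in the other lines in that order. SLC7A11 differed by 0.22 ± 0.17 (adjusted p 0.367), with 2.91 in TALL-1 and 1.45, 1.96 and 4.68 elsewhere. In each case the TALL-1 change lay between those of RPMI-8402 and the other two.

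HERPUD1, of ER-associated degradation, rose by 1.21 in TALL-1 and differed from the mean of the others by -0.38 (adjusted p 0.00026), but the changes in SUPT11 (1.08) and P12-ICHIKAWA (1.15) were smaller than in TALL-1 and that in RPMI-8402 was larger (2.53). SEC24D differed by 1.03, with 1.92 in TALL-1 and 0.38, 0.19 and 2.10 in the other lines, so RPMI-8402 again had the larger change. EDEM2 differed by 1.29, and its change in TALL-1 (1.87) was above each of the others (0.11, 0.29 and 1.35). TALL-1 was not tested against each line singly.

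**Figure D5:**
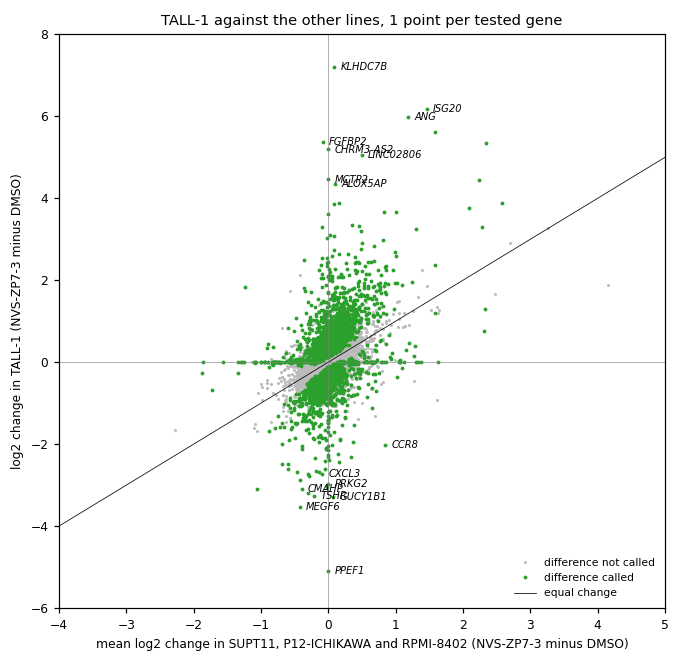
Log2 change in TALL-1 against the mean log2 change in the other 3 lines, 1 point per tested gene, green where the difference was called and with the line of equal change. The 16 labelled genes include PPEF1, PRKG2 and MCTP2, which lie at 0 on the horizontal axis because the other lines have them at the floor, and CCR8, which lies on opposite sides of 0.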

How the data were processed

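Gene expression was measured on 24 arrays, 6 of them of TALL-1. The authors deposited log2 values for 54675 probe sets, and GCRMA and limma are the tools listed in the submitters' processing notes, with no version or setting. Of the probe sets 41097 map to 1 gene in the platform annotation, 1801 to several and 11777 to none, and 41043 of the 41097 matched RefSeq. The probe set with the highest mean stood for each of 19775 genes. limma 3.58.1 in R 4.3.3 was fitted to all 24 arrays with 8 group means, so all lines share the estimate of spread, and Benjamini-Hochberg adjustment ran over the 10661 tested genes. A gene counts as measured in TALL-1 when it reaches log2 4 on at least 3 of its 6 arrays. Scripts were tested on simulated data. Motifs were searched in the RefSeq windows of 8820 tested genes. Members, gene lists and rules were chosen with earlier results of these data known. Genes named by rule were called, separated the groups, had a higher mean of log2 6 or more and stayed called without treated replicate 2: the 15 largest rises and falls, up to 4 per list, and the 8 largest differences from the other lines each way. T cell markers and lineage factors were named whether called or not, and other named genes were singled out after their values were seen. Alternatives were other filters, probe set choices, scalings, covariates and arrays left out. One gene list is not reported here.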

Additional observations from a re-analysis of the deposited data

Results flagged for a closer look

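The response of TALL-1 differed from the mean response of SUPT11, P12-ICHIKAWA and RPMI-8402 for 3050 genes by limma's test of the difference. The 8 largest positive differences on the log2 scale were those of KLHDC7B (7.11), FGFBP2 (5.46), CHRM3-AS2 (5.19), ANG (4.79), ISG20 (4.71), LINC02806 (4.56), MCTP2 (4.46) and ALOX5AP (4.25). The 8 largest negative differences were those of PPEF1 (-5.10), GUCY1B1 (-3.36), MEGF6 (-3.11), TSHR (-3.05), PRKG2 (-2.96), CCR8 (-2.86), CMAHP (-2.70) and CXCL3 (-2.64). For CCR8 the TALL-1 arrays fell while RPMI-8402 rose, and for KLHDC7B, CHRM3-AS2, MCTP2, PPEF1 and PRKG2 the other lines were at or near the floor with either treatment. Of the genes that TALL-1 with DMSO does not show and other lines of the study do, 48 were raised on treated replicate 2, a measure that the comparison of treatments does not use. FGFBP2, WNK3, SELENOP and MTUS1 are among the 48 and were raised on all 3 treated arrays.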

How the results depend on the processing

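The count of genes that changed in TALL-1 (4471) lay between 3893 and 4208 with any single array left out of the fit of all lines (higher 2017 to 2450, lower 1718 to 2107), and the fit of the 5 TALL-1 arrays other than treated replicate 2, an alternative chosen after seeing the data, gave 2006 (1165 higher, 841 lower). The count of differences from the other lines (3050) lay between 2611 and 3101 (higher 1392 to 1983, lower 1012 to 1227). Asking for a log2 change of at least 1 gave 607 (426 and 181) in TALL-1 and 443 (286 and 157) for the differences, and an adjusted p below 0.01 gave 3343 and 1926 (1170 and 756 for the latter). Higher calls made up 53.2% of the TALL-1 calls, 47.3% after quantile normalization and 44.4% after median centring. The replicate block gave 4192 and 2698, but the numbers do not pair the arrays, since deviations of same-numbered arrays correlated at -0.141, -0.141 and -0.042. The ACTB difference of 0.486 lay between 0.424 and 0.536 with an array left out. With the mean of all probe sets 18 of 117 genes, not 48 of 275, were raised on treated replicate 2, and TCF3 changed by -0.45 in place of 0.06, the only reversal among 5300 values of 266 named genes; 306 values lost their call and 19 gained it. Of the losses 60 came with TALL-1 fitted alone without treated replicate 2, 33 with the ACTB covariate and 22 with TALL-1 alone. The ACTB covariate, centring, quantile normalization and leaving out treated replicate 2 moved 36, 14, 10 and 9 of 132 list counts by over 1.5 times. Causes were not tested. Signal near the floor limits what 3 arrays a group can show.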

Other observations

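A few further groups complete the picture of TALL-1. The sphingolipid enzyme SPTLC2, which starts ceramide synthesis, rose from 11.98, 11.99 and 11.90 to 12.47, 12.52 and 12.64, and CPT1A, which admits fatty acids to mitochondria, went from 10.63, 10.39 and 10.41 to 9.92, 9.92 and 9.96. Of 26 genes of lipid droplets and phospholipids 10 rose and 2 fell, the other fall being DGAT2, a triglyceride synthase (5.96, 5.40 and 5.18 against 3.64, 3.84 and 4.04).

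Among 11 snoRNA hosts and long noncoding RNAs 4 rose and none fell, and 1 fell after quantile normalization or with the ACTB covariate. ZFAS1 rose from 14.44, 14.31 and 14.29 to 14.90, 14.88 and 14.90 and EPB41L4A-AS1 from 12.58, 12.45 and 12.43 to 13.51, 13.57 and 13.60, although 1 other probe set of each moved the opposite way.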
